A study of Homo sapiens with 18 samples.

Results

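The 32 genes described here are transcripts that androgen is known to raise in prostate cells, beyond the best known markers of the androgen response. They were taken by gene symbol, and all 32 were found among the 21391 features of the inhibitor table and the 18350 features of the siRNA table. All cells were LNCaP, an androgen-responsive line from a prostate cancer metastasis, grown in RPMI medium with 10% FBS, and the labels name no androgen or anti-androgen added to any group. Inhibitor groups were exposed for 24 h to DMSO as vehicle, or to UPF1069, olaparib or veliparib at 10 uM each. For knockdown, siRNA was left on the cells for 72 h: siNC as control, sequence A or B against PARP1 (siPARP1-A, siPARP1-B), and sequence A or B against PARP2 (siPARP2-A, siPARP2-B). Each of the 9 groups had 2 libraries of total RNA, which the series calls biological duplicates of a single line. Androgen exposure itself was not varied, so that "androgen-induced" is background to these genes and not a measurement of this series.

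Testosterone and dihydrotestosterone raise transcription in luminal prostate cells through inverted repeats in DNA called androgen response elements, which lie mostly in enhancers far from gene starts. The pioneer factor FOXA1 opens much of that chromatin, and the genes raised serve secretion, lipid and sugar metabolism, glycosylation, ion transport and cell growth. PARP1 and PARP2 are nuclear enzymes that modify chromatin proteins with ADP-ribose, above all where DNA is broken. Olaparib, a phthalazinone, and veliparib, a benzimidazole carboxamide, inhibit both enzymes, and UPF1069 is sold as an inhibitor of PARP2.

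The inhibitor libraries held 26.4 to 35.7 M reads and the siRNA libraries 15.4 to 18.6 M, and values are counts per M reads (CPM) in the first table and normalised reads per M in the second. A log2 fold change below is a difference of mean log2(value + 1), given as estimate ± SE from limma, with adjusted p-values over all genes tested and a threshold of 0.05. PARP1 mRNA was at 452 and 479 normalised reads per M with siNC, 4.78 and 5.67 with siPARP1-A and 8.99 and 9.05 with siPARP1-B, and it was also lower with siPARP2-B, at 160.5 and 145 (log2 fold change -1.60 ± 0.07, adjusted p = 7.66e-16), than with siPARP2-A, at 409 and 395. PARP2 mRNA was at 28.96 and 25.8 with siNC, 3.06 and 2.56 with siPARP2-A and 1.78 and 1.01 with siPARP2-B. It was also lower, without overlap, with siPARP1-A, at 22.1 and 20.9 (log2 fold change -0.34 ± 0.14, adjusted p = 0.0417), and with siPARP1-B, at 19.8 and 17.96 (-0.51 ± 0.14, adjusted p = 0.00429), and its part in the siPARP1 results was not tested. The luminal markers KRT8, KRT18, FOLH1, HOXB13 and EPCAM were all present, with a summed level of 1991 to 2716 CPM in the inhibitor libraries. Of 4 basal, 4 neuroendocrine, 6 stromal and 7 immune and endothelial markers, the inhibitor table lists 2, 1, 4 and 3, with summed levels of at most 1.07, 3.15, 19.1 and 11.4 CPM, and the siRNA table lists 2, 1, 4 and 2, with at most 1.07, 3.86, 9.24 and 8.56. Within each group, the libraries differed by more than counting noise, so none was taken for a copy.

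Stretches before the gene starts of TRPM8, DEFB132 and STK39 are shown. TRPM8 had the largest log2 fold change with olaparib of the members with a promoter entry. DEFB132 and STK39 are the members whose 250 bases before the start hold AGAACA, the 6-base core of the androgen response element. These genes fell with olaparib and with both siPARP2 sequences, as did most members. Sequences are from RefSeq's table for GRCh38.p14, read 5′ to 3′ in the direction of the gene, with AGAACA in capitals.
TRPM8, chr2:233917123-233917372, plus strand: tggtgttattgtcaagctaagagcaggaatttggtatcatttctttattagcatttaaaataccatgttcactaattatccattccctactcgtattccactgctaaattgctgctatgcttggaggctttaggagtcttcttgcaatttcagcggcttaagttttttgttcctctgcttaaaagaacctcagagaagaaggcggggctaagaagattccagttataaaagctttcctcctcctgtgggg
DEFB132, chr20:257474-257723, plus strand: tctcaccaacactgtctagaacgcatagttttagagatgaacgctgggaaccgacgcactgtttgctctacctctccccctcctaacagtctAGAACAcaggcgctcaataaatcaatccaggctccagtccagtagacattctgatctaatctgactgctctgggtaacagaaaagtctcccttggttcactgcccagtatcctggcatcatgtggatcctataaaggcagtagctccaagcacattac
STK39, chr2:168247690-168247719, minus strand: tcgccgaggcggAGAACAgcgcgcgctagg
The TRPM8 and DEFB132 stretches are the 250 bases before the start, and the STK39 stretch is 30 bases of that window. It was cut because a GENCODE v29 transcript of STK39 covers part of the window, so that the core may lie within that transcript. The core begins 158 bases before the start of DEFB132 and 112 bases before that of STK39. Of the 32 members, 23 matched an entry of the table, and 2 of those 23 (8.7%) held AGAACA or its reverse complement, beside 4350 of all 35116 entries (12.4%). Only the first entry of each member was searched, while the background counts every entry. The full inverted repeat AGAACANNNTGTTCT was in 0 of 23 members and in 1 of the 35116 entries (0.00285%). The forkhead motif TGTTTAC, searched on both strands, was in 0 of 23 members and in 1046 entries (2.98%). These counts describe letters in short windows at gene starts and do not cover enhancers.

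Olaparib lowered most of the androgen-induced genes, whereas UPF1069 and veliparib moved fewer of them and by less. With olaparib, 29 of the 31 members tested fell and LIFR rose, beside 26.8% of all 13337 genes that fell and 25.8% that rose. The median log2 fold change of the members was -1.19, and that of all genes was 0.00091. A fall of at least 2-fold was measured for 18 members, beside 1.32% of all genes. Every one of these 30 calls held under each alternative setting run. SLC26A3, a chloride and bicarbonate exchanger, did not reach the mean of 1 CPM needed for the test, with 8 reads in all in the DMSO libraries and 0 in the olaparib libraries, where a count of 0 allows up to 3 reads.

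**Figure D1:**
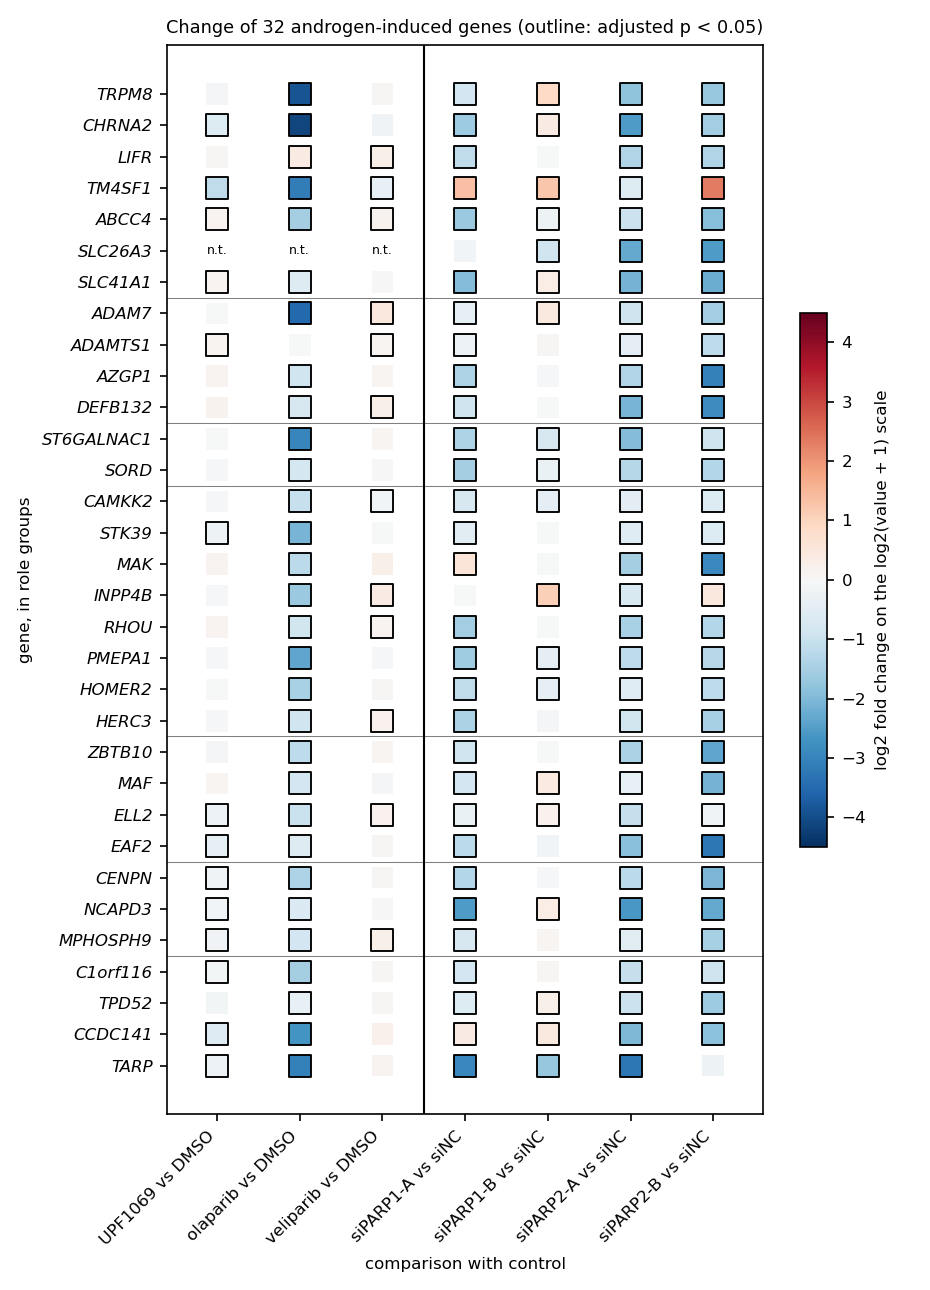
Log2 fold change of each of the 32 genes (rows, in role groups parted by lines) in the 7 comparisons with a control (columns); blue is lower and red is higher than the control, a black outline marks an adjusted p below 0.05 and n.t. marks a gene not tested. The olaparib and siPARP2 columns are mostly blue, with LIFR higher with olaparib and TM4SF1 and INPP4B higher with siPARP2-B, while the siPARP1-B column holds 8 lower and 11 higher genes.

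Among the channels, receptors and transporters at the cell surface, 5 of 6 members tested fell with olaparib and LIFR rose. TRPM8, the cation channel that opens to cold and menthol, was at 42.6 and 40.7 CPM with DMSO, 38.8 and 40.1 with UPF1069, 1.82 and 1.91 with olaparib and 45.1 and 42.2 with veliparib. The olaparib libraries lay far below all others for this gene, 22.4-fold below DMSO by the means (log2 fold change -3.90 ± 0.06, adjusted p = 2.89e-22). CHRNA2, a subunit of neuronal nicotinic acetylcholine receptors, was at 26.1 and 27.3 CPM with DMSO, 17.3 and 17.2 with UPF1069, 0.575 and 0.588 with olaparib and 22.7 and 24.1 with veliparib. It had the largest log2 fold change of all members with olaparib (-4.13 ± 0.08, adjusted p = 2.42e-21) and was 45.9-fold lower by the means. By the ratio of means, CCDC141, described below, fell more. The UPF1069 libraries of CHRNA2 also lay below both DMSO libraries. TM4SF1, a small membrane protein linked to cell migration, was at 22.5 and 24.6 CPM with DMSO, 9.80 and 10.2 with UPF1069, 1.69 and 1.88 with olaparib and 18.5 and 17.7 with veliparib. Its order was DMSO, veliparib, UPF1069 and olaparib from high to low without overlap, and it fell by 3.14 on the log2 scale with olaparib (adjusted p = 1.5e-18). The efflux pump ABCC4 was at 643 and 648 CPM with DMSO, 695 and 700.4 with UPF1069, 219 and 224 with olaparib and 729 and 719 with veliparib, a log2 fold change of -1.54 ± 0.03 with olaparib, and the magnesium transporter SLC41A1 changed by -0.56 ± 0.04. LIFR, the receptor of leukaemia inhibitory factor, was at 28.5 and 29.4 CPM with DMSO, 29.9 and 30.5 with UPF1069, 36.2 and 38.6 with olaparib and 37.5 and 32.8 with veliparib. Its olaparib libraries lay above both DMSO libraries (0.36 ± 0.06, adjusted p = 4.76e-05), and so did its veliparib libraries.

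Of the secreted and membrane-bound proteins, ADAM7, a member of the ADAM family of membrane proteins, was at 23.8 and 21.8 CPM with DMSO, 21.2 and 23.8 with UPF1069, 0.999 and 1.15 with olaparib and 32.1 and 32.4 with veliparib. It was 21.2-fold lower with olaparib by the means (-3.52 ± 0.08, adjusted p = 1.05e-19), while the veliparib libraries lay above DMSO. The secreted glycoprotein AZGP1 (-0.91 ± 0.06) and the beta-defensin DEFB132 (-0.75 ± 0.09) fell by smaller amounts. ADAMTS1, a secreted metalloprotease that cleaves proteoglycans, was at 346 and 335 CPM with DMSO, 379 and 371 with UPF1069, 339 and 337 with olaparib and 363 and 364 with veliparib. Its DMSO and olaparib libraries overlapped, and it was the only member tested without a call with olaparib (-0.01 ± 0.04, 95% interval -0.09 to 0.06, adjusted p = 0.807).

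Both metabolic and glycosylation enzymes fell with olaparib. ST6GALNAC1, which adds the sialic acid of the sialyl-Tn antigen, was at 17.5 and 16.97 CPM with DMSO, 18.03 and 16.5 with UPF1069, 1.36 and 1.29 with olaparib and 18.3 and 18.6 with veliparib. The olaparib libraries were 13.00-fold below DMSO by the means (-2.97 ± 0.08, adjusted p = 2.18e-18), and the DMSO and UPF1069 libraries overlapped. SORD, which turns sorbitol into fructose, was at 562 and 571 CPM with DMSO, 539 and 541 with UPF1069, 325 and 329 with olaparib and 571 and 567 with veliparib, a change of -0.79 ± 0.03 (adjusted p = 1.69e-14). SORD has a near-identical pseudogene copy, so that its reads are uncertain.

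All 8 members among the signalling enzymes, their regulators and scaffolds fell with olaparib, with a median log2 fold change of -1.33 and a range of -2.37 to -0.85. PMEPA1, a membrane protein that dampens TGF-beta signalling, was at 185 and 192 CPM with DMSO, 181 and 179 with UPF1069, 36.2 and 35.1 with olaparib and 188 and 179 with veliparib. STK39, a kinase that controls ion cotransporters, was at 277 and 282 CPM with DMSO, 242 and 236 with UPF1069, 66.1 and 62.6 with olaparib and 286 and 264 with veliparib. INPP4B, a lipid phosphatase of the PI3K pathway, was at 17.2 and 18.5 CPM with DMSO, 16.7 and 17.2 with UPF1069, 4.60 and 5.18 with olaparib and 23.9 and 22.8 with veliparib. In all of these genes the olaparib libraries were the lowest without overlap, with log2 fold changes of -2.37 ± 0.04, -2.104 ± 0.04 and -1.68 ± 0.08 and adjusted p-values of 7.1e-22, 1.32e-20 and 2.93e-14. The other members of the group changed as follows on the log2 scale: the scaffold HOMER2 -1.44, MAK -1.21, CAMKK2 -1.05, HERC3 -0.88 and RHOU -0.85. Of these, MAK is a kinase named for male germ cells, CAMKK2 activates AMPK, HERC3 is a ubiquitin ligase and RHOU is an atypical small GTPase.

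All 4 transcription and elongation factors fell with olaparib: the zinc finger protein ZBTB10 by 1.19 on the log2 scale, the elongation factor ELL2 by 1.02, the leucine zipper factor MAF by 0.81 and the ELL-associated factor EAF2 by 0.59. The 3 chromosome and cell division genes also fell, the centromere protein gene CENPN (-1.40 ± 0.05), the centriole protein gene MPHOSPH9 (-0.82 ± 0.05) and the condensin subunit gene NCAPD3 (-0.68 ± 0.04). In GENCODE v29, 12.8% of the exon bases of CENPN overlap CMC2 and 5.1% of those of NCAPD3 overlap JAM3. For TPD52, 10.7% overlap another locus. Further members also overlap other loci, among them SORD (6.92%), HERC3 (6.57%), PMEPA1 (6.1%), ZBTB10 (5.81%) and LIFR (5.3%). The library kit does not keep strand. Among the other proteins, TARP, which is made from the T cell receptor gamma locus in prostate epithelium, was at 11.03 and 10.3 CPM with DMSO, 8.51 and 9.05 with UPF1069, 0.363 and 0.392 with olaparib and 11.97 and 11.5 with veliparib, 28.2-fold lower with olaparib by the means (-3.08 ± 0.09, adjusted p = 1.97e-17). Reads of TARP cannot be told apart from those of the locus it lies in. CCDC141, a coiled-coil protein, was at 5.60 and 5.94 CPM with DMSO, 3.50 and 3.47 with UPF1069, 0.0605 and 0.056 with olaparib and 6.97 and 6.79 with veliparib, and all olaparib reads of it numbered 4 beside 364 with DMSO. That is a ratio of 99.4 with an exact counting interval of 38.5 to 367, and it covers counting error only. The androgen-regulated gene C1orf116 fell by 1.52 and TPD52, a vesicle trafficking protein, by 0.36, the smallest fall called.

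The falls with olaparib were measured beside FOXA1 mRNA that was higher (0.29 ± 0.04, adjusted p = 2.66e-06). KLK3, the gene of prostate-specific antigen and no member here, changed by -2.99 ± 0.04. In a list of 32 further androgen-induced genes, 28 of 31 tested fell with olaparib and 0 rose, beside 26.8% and 25.8% of all genes. Their median log2 fold change was -1.14. This list, like the members, was chosen with earlier results of these data known, so that it gives no independent support. The 5 luminal markers summed to 2702 to 2716 CPM with olaparib and 2076 to 2129 with DMSO. The summed stromal markers were lower, at 14.6 to 15.2 beside 17.9 to 18.0 CPM, and so were the immune and endothelial markers, nearly all VWF, at 5.57 to 6.05 beside 10.5 to 11.4 CPM; their part in the result was not tested. As in any bulk sample, fewer cells that express a gene and less RNA per cell cannot be told apart.

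**Figure D2:**
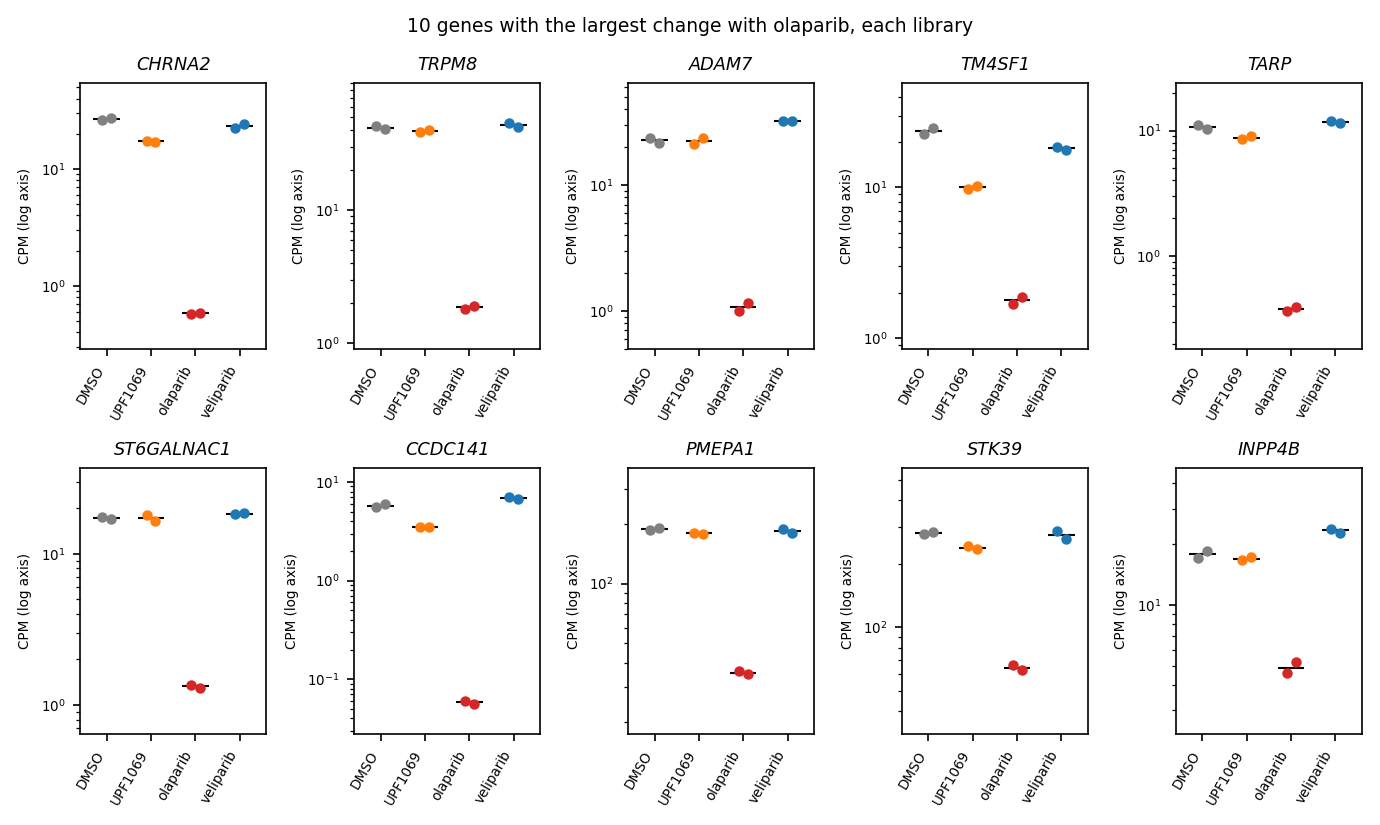
CPM of each library (points, log axis) in the 4 inhibitor groups for the 10 genes with the largest log2 fold change with olaparib; black bars are the means of 2 libraries. The olaparib libraries are the lowest in every panel. The UPF1069 libraries of TM4SF1, CHRNA2, CCDC141, STK39, TARP, TRPM8 and PMEPA1 lie between olaparib and DMSO, for TRPM8 and PMEPA1 without a call against DMSO.

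UPF1069 lowered 11 and raised 3 of the 31 members tested, with a median log2 fold change of -0.07; 14% of all genes fell and 10.3% rose, with a median of -0.018. The largest change was that of TM4SF1 (-1.16 ± 0.08, adjusted p = 6.67e-10), 2.36-fold lower by the means, followed by CHRNA2 (-0.60 ± 0.08), CCDC141 (-0.59 ± 0.11) and EAF2 (-0.42 ± 0.10). EAF2 was at 5.32 and 5.56 CPM with DMSO, 3.66 and 3.98 with UPF1069, 3.27 and 3.31 with olaparib and 5.65 and 5.66 with veliparib, so that the UPF1069 and olaparib libraries lay close together below the others. The other falls were small, ELL2 -0.25, TARP -0.25, STK39 -0.23, CENPN -0.20, MPHOSPH9 -0.19, NCAPD3 -0.17 and C1orf116 -0.13 on the log2 scale, and so were the rises, ADAMTS1 0.14, SLC41A1 0.13 and ABCC4 0.11. The number of falls depended on the libraries, with 6 without the second UPF1069 library. The rises numbered 0 without the second DMSO or the first UPF1069 library, 1 without the first DMSO or the second UPF1069 library, and 5 without either veliparib library. ABCC4, ADAMTS1, C1orf116, CENPN, ELL2, MPHOSPH9, SLC41A1 and TARP each lost their call under at least 1 alternative setting.

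Veliparib raised 10 and lowered 2 of the 31 members tested, with a median of 0.085 beside -0.0034 for all genes; 17.2% of all genes rose and 23.2% fell. ADAM7 had the largest change (0.48 ± 0.08, adjusted p = 4.09e-05), followed by INPP4B (0.37 ± 0.08). The further rises were LIFR 0.27, MPHOSPH9 0.26, DEFB132 0.25, ELL2 0.19, HERC3 0.18, ABCC4 0.17, RHOU 0.14 and ADAMTS1 0.09, and the falls were TM4SF1 -0.36 and CAMKK2 -0.16, all on the log2 scale. Changes with veliparib followed the GC content of genes, with a Spearman correlation of -0.689 across 13075 genes, which are not independent replicates. With a correction for GC content and length, chosen after seeing the data, 5 members were lower with veliparib, and LIFR, INPP4B, ABCC4, DEFB132 and ELL2 were among those that lost their call. Without the first veliparib library, 4 members were lower.

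The compounds were compared directly at the same dose and time, in 3 pairs. Against UPF1069, olaparib gave lower levels of 29 of 31 members and a higher level of LIFR, beside 24.2% lower and 27% higher of all genes. EAF2 did not pass (-0.17 ± 0.10, 95% interval -0.37 to 0.03, adjusted p = 0.159), except with a correction for GC content and length (0.0182). Against veliparib, olaparib gave lower levels of 30 of 31 members and a higher level of 0, beside 27.7% lower and 31.7% higher of all genes. LIFR did not pass in that pair (0.09 ± 0.06, 95% interval -0.04 to 0.22, adjusted p = 0.23), and the call of ADAMTS1 (-0.11 ± 0.04) was lost under some alternatives. On the log2(value + 1) scale, which understates changes of low genes such as CCDC141, olaparib and veliparib differed most for ADAM7 (-4.005 ± 0.08), TRPM8 (-3.96 ± 0.06) and CHRNA2 (-3.95 ± 0.08). Between UPF1069 and veliparib, 17 members were lower and 3 higher with UPF1069, beside 24.9% and 25.9% of all genes, with a median of -0.19. The largest of these differences were those of CCDC141 -0.81, TM4SF1 -0.80, ADAM7 -0.50 and EAF2 -0.47. For the 11 members that did not pass, the 95% intervals lay between -0.40 and 0.18. The 3 higher members became 0 without the first UPF1069 library and 1 without the second UPF1069 or the first veliparib library, and without the latter olaparib was above veliparib for 1 member.

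Nearly all members were lower than siNC with both siPARP2 sequences. With siPARP2-A, 32 of 32 fell, beside 24.9% of all 12701 genes tested, and 24.5% of all genes rose. With siPARP2-B, 29 fell and 2 rose, beside 35.2% and 30.9% of all genes. The median log2 fold change was -1.24 with siPARP2-A and -1.53 with siPARP2-B, beside -0.0018 and -0.026 for all genes, and 20 and 24 members fell at least 2-fold, beside 2.31% and 7.9% of all genes. The same 29 members fell with both sequences, beside 13.9% of all genes. TM4SF1 and INPP4B were lower with siPARP2-A and higher with siPARP2-B, a pattern of 4.82% of all genes, and TARP fell only with siPARP2-A.

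EAF2 and ZBTB10 of the transcription and elongation factors and DEFB132 and AZGP1 of the secreted proteins were among the 10 members with the largest mean fall. EAF2, which binds the elongation factor ELL, was at 131 and 129.95 with siNC, 51.6 and 61.9 with siPARP1-A, 120.4 and 114 with siPARP1-B, 33.9 and 34.8 with siPARP2-A and 13.6 and 11.8 with siPARP2-B, in normalised reads per M as in all values of the siRNA libraries. Its siPARP2 libraries were the lowest without overlap, with log2 fold changes of -1.90 ± 0.08 and -3.27 ± 0.08 (adjusted p = 1.77e-15 and 5.82e-21). ZBTB10 was at 260.2 and 239 with siNC, 129.5 and 135 with siPARP1-A, 225 and 265 with siPARP1-B, 92.7 and 94.05 with siPARP2-A and 46.8 and 47.7 with siPARP2-B. The order of groups was the same as for EAF2, apart from overlapping siNC and siPARP1-B libraries, with changes of -1.41 ± 0.07 and -2.37 ± 0.07. The beta-defensin DEFB132 was at 135 and 145 with siNC, 71.1 and 76.6 with siPARP1-A, 137 and 139 with siPARP1-B, 30.5 and 33.6 with siPARP2-A and 19.2 and 18.8 with siPARP2-B. AZGP1, a secreted glycoprotein of prostate fluid, was at 110.2 and 129.6 with siNC, 42.7 and 47.4 with siPARP1-A, 118 and 115 with siPARP1-B, 49.1 and 43.8 with siPARP2-A and 15.05 and 11.6 with siPARP2-B. DEFB132 changed by -2.096 ± 0.07 and -2.82 ± 0.07 and AZGP1 by -1.35 ± 0.10 and -3.09 ± 0.10, and for AZGP1 the siPARP1-A libraries overlapped with those of siPARP2-A. ADAM7 (-0.92 and -1.58) and ADAMTS1 (-0.43 and -1.19) also fell with both.

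At the cell surface, SLC41A1, the magnesium transporter, was at 176 and 172 with siNC, 46.5 and 42.9 with siPARP1-A, 209 and 232 with siPARP1-B, 38.3 and 39.6 with siPARP2-A and 35.3 and 36.4 with siPARP2-B. Its siPARP2 libraries lay slightly below those of siPARP1-A, and all of these lay far below siNC, with changes of -2.13 ± 0.07 and -2.25 ± 0.07. CHRNA2 was at 31.5 and 29.2 with siNC, 9.25 and 8.73 with siPARP1-A, 39.2 and 39.03 with siPARP1-B, 4.65 and 4.06 with siPARP2-A and 9.46 and 9.75 with siPARP2-B. It was lower with siPARP2-A than with siPARP2-B (-0.99 ± 0.10, adjusted p = 7.8e-09), and both lay below siNC. SLC26A3, which could be tested only in this table, was at 8.12 and 8.04 with siNC, 6.53 and 7.90 with siPARP1-A, 3.20 and 4.70 with siPARP1-B, 1.04 and 0.625 with siPARP2-A and 0.535 and 0.564 with siPARP2-B. It was 9.70-fold lower with siPARP2-A and 14.7-fold lower with siPARP2-B by the means (log2 changes on the log2(value + 1) scale of -2.32 ± 0.17 and -2.55 ± 0.17). TRPM8 was at 39.9 and 43.4 with siNC, 22.1 and 23.5 with siPARP1-A, 74.3 and 81.2 with siPARP1-B, 10.7 and 11.9 with siPARP2-A and 12.8 and 11.4 with siPARP2-B. It changed by -1.80 ± 0.09 and -1.70 ± 0.09 with the siPARP2 sequences, and the difference between them did not pass (95% interval -0.28 to 0.09). ABCC4 was at 1009.6 and 955 with siNC, 309.9 and 302 with siPARP1-A, 810.1 and 859.6 with siPARP1-B, 503 and 489 with siPARP2-A and 271 and 246 with siPARP2-B. It fell more with siPARP2-B (-1.92 ± 0.06) than with siPARP2-A (-0.98 ± 0.06; difference 0.94 ± 0.06, adjusted p = 3.33e-13). LIFR, which had risen with olaparib, was at 219 and 204 with siNC, 96.1 and 94.98 with siPARP1-A, 191 and 227 with siPARP1-B, 83.2 and 79.9 with siPARP2-A and 83.1 and 82.8 with siPARP2-B, a fall of 1.36 and 1.34 on the log2 scale with the siPARP2 sequences.

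NCAPD3, a subunit of condensin, was at 615 and 634 with siNC, 113 and 100.02 with siPARP1-A, 762 and 812 with siPARP1-B, 102 and 98.9 with siPARP2-A and 136 and 115 with siPARP2-B. It fell to similar levels with siPARP1-A and both siPARP2 sequences (siPARP2-A -2.63 ± 0.07, siPARP2-B -2.31 ± 0.07) and was above siNC with siPARP1-B. CENPN (-1.21 and -2.04) and MPHOSPH9 (-0.51 and -1.49) also fell with both. The kinase MAK was at 13.6 and 11.8 with siNC, 17.96 and 20.7 with siPARP1-A, 11.9 and 12.99 with siPARP1-B, 4.83 and 2.88 with siPARP2-A and 0.892 and 0.789 with siPARP2-B, so that the siPARP1-A libraries were the highest and the siPARP2-B libraries the lowest (-1.52 ± 0.15 and -2.89 ± 0.15 with the siPARP2 sequences). CCDC141 was at 25.5 and 25.2 with siNC, 35.2 and 30.5 with siPARP1-A, 32.03 and 36.7 with siPARP1-B, 5.99 and 5.06 with siPARP2-A and 6.66 and 6.14 with siPARP2-B, low with both siPARP2 sequences (-2.02 ± 0.11 and -1.83 ± 0.11) and above siNC with both siPARP1 sequences. The remaining members that fell with both sequences ran from -0.38 for MAF to -1.96 for ST6GALNAC1 with siPARP2-A, and from -0.20 for ELL2 to -2.12 for MAF with siPARP2-B. The call of MAF with siPARP2-A was lost without the second siNC library or the second siPARP2-A library (adjusted p = 0.0695 and 0.191). The call of ELL2 with siPARP2-B was lost with median centring (adjusted p = 0.0646) and with the correction for length and GC content (0.0547).

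The siPARP2 sequences differed from each other for 23 of the 32 members, beside 64.8% of all genes: 9 were lower and 14 higher with siPARP2-A than with siPARP2-B, beside 30.6% and 34.3%. TM4SF1 was at 4.74 and 4.13 with siNC, 13.2 and 12.8 with siPARP1-A, 12.5 and 11.6 with siPARP1-B, 2.45 and 2.56 with siPARP2-A and 25.99 and 26.99 with siPARP2-B. The siPARP2-B libraries were the highest and the siPARP2-A libraries the lowest of all (-2.97 ± 0.12 between them, adjusted p = 4.56e-17). INPP4B was at 15.3 and 13.6 with siNC, 14.1 and 14.1 with siPARP1-A, 28.3 and 34.5 with siPARP1-B, 9.24 and 7.38 with siPARP2-A and 21.6 and 18.9 with siPARP2-B, with siPARP2-A below and siPARP2-B above siNC (-0.74 ± 0.12 and 0.46 ± 0.12). TARP was at 57.8 and 51.5 with siNC, 5.80 and 6.75 with siPARP1-A, 15.3 and 16.2 with siPARP1-B, 4.40 and 5.19 with siPARP2-A and 44.9 and 47.8 with siPARP2-B. Its siPARP2-B libraries lay just below siNC and did not pass (-0.23 ± 0.11, 95% interval -0.45 to -0.01, adjusted p = 0.0569), though it passed with edgeR (0.0247) and without the second siNC library (0.0443). The other 3 siRNAs gave lower levels of it. MAF (1.74 ± 0.11), AZGP1 (1.74 ± 0.10) and EAF2 (1.37 ± 0.08) were higher with siPARP2-A.

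**Figure D3:**
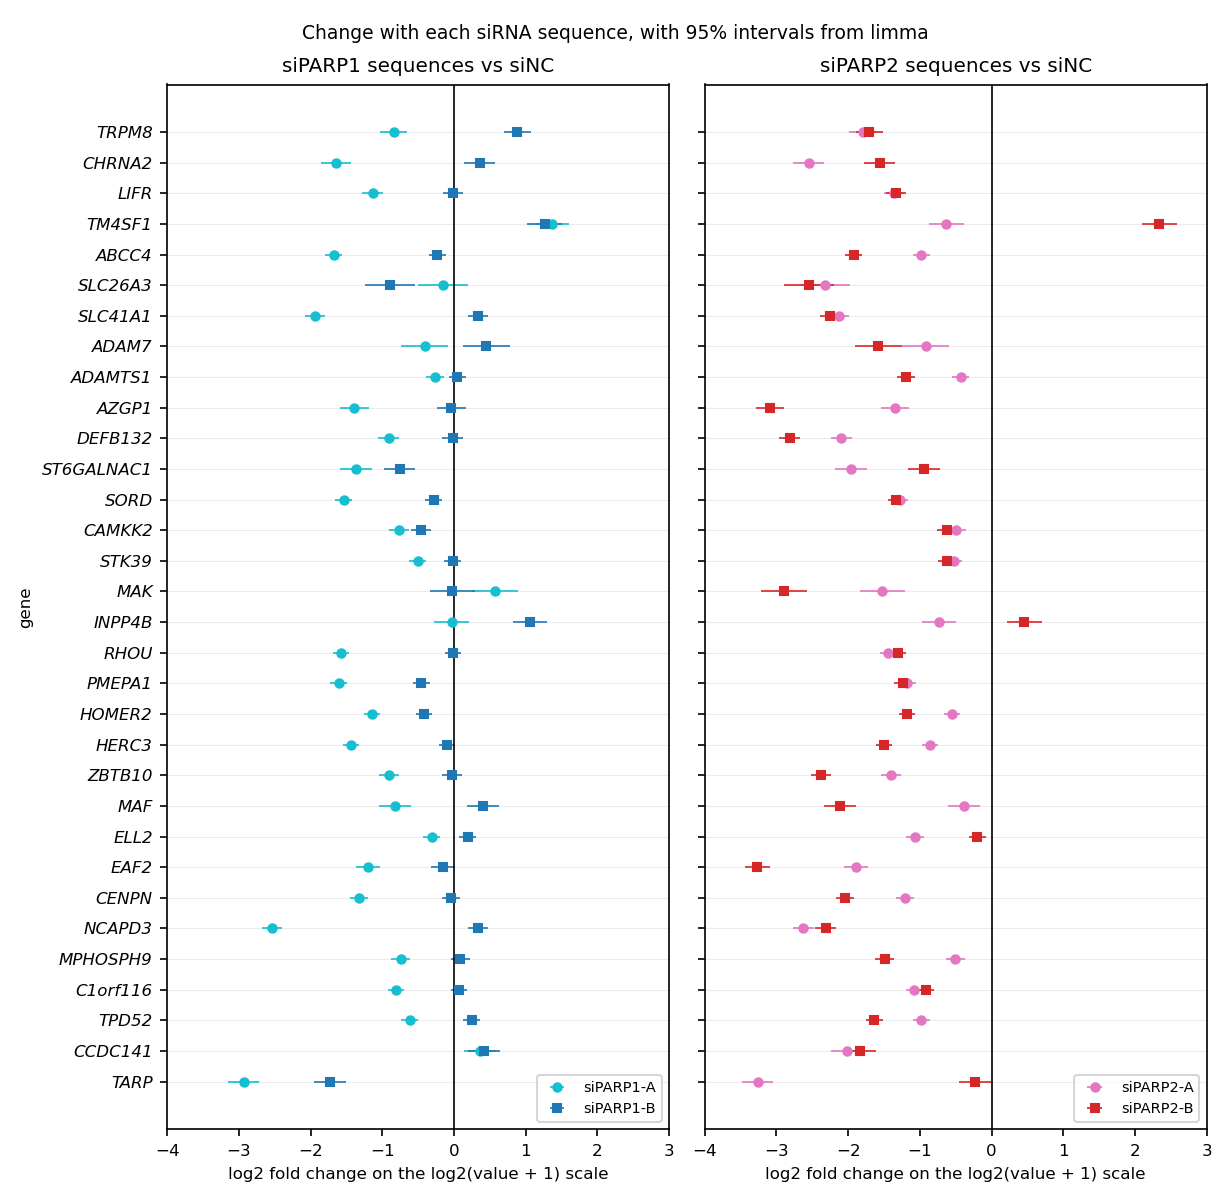
Log2 fold change against siNC (x axis) of each of the 32 genes (y axis) for both siPARP1 sequences (left panel) and both siPARP2 sequences (right panel), with 95% intervals from limma over 2 libraries per group. In the right panel 29 genes lie left of 0 with both sequences, while in the left panel 8 genes are lower with siPARP1-A and higher with siPARP1-B.

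The falls with siPARP2 were measured beside FOXA1 mRNA that was lower with siPARP2-A (-0.72 ± 0.09). With siPARP2-B, FOXA1 changed by -0.21 ± 0.09, and its libraries, at 148 to 183, overlapped with those of siNC, at 177.5 to 205.4. PARP1 was also lower with siPARP2-B, as given above. The part of these changes in the result was not tested. The summed luminal markers were at 3066 to 3068 with siNC, 2185 to 2239 with siPARP2-A and 2117 to 2167 with siPARP2-B. The stromal markers were at 2.60 to 3.22, 2.13 to 3.06 and 9.04 to 9.24, and the immune and endothelial markers, nearly all VWF, at 1.82 to 2.24, 1.77 to 2.31 and 8.23 to 8.56, so that both were higher with siPARP2-B; their part was not tested. In the list of further androgen-induced genes, 27 of 31 tested fell and 2 rose with each siPARP2 sequence, with medians of -1.14 and -1.27. The shares of all genes that fell and rose were 24.9% and 24.5% with siPARP2-A and 35.2% and 30.9% with siPARP2-B.

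The siPARP1 sequences gave different results from each other. With siPARP1-A, 27 of 32 members fell and 3 rose, beside 28.9% and 25.5% of all genes, with a median of -0.91 and 15 falls of at least 2-fold (3.81% of all genes). With siPARP1-B, 8 fell, 11 rose and 13 did not pass, beside 23.9% and 16.4% of all genes, with a median of -0.019 beside -0.031 for all genes. PARP1 mRNA itself changed by -6.23 ± 0.07 with siPARP1-A and -5.54 ± 0.07 with siPARP1-B. Both lowered 7 members, beside 11.4% of all genes, and both raised TM4SF1 and CCDC141, beside 7.83%. A further 8 members, TRPM8, CHRNA2, SLC41A1, ADAM7, MAF, ELL2, NCAPD3 and TPD52, were lower with siPARP1-A and higher with siPARP1-B, a pattern of 3.05% of all genes.

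The members lowered by both siPARP1 sequences were the efflux pump gene ABCC4, the enzyme genes ST6GALNAC1 and SORD, the signalling genes CAMKK2, PMEPA1 and HOMER2, and TARP. TARP changed most (-2.93 ± 0.11 and -1.73 ± 0.11), with all siPARP1 libraries below both siNC libraries. ST6GALNAC1 was at 35.8 and 41.7 with siNC, 15.1 and 13.6 with siPARP1-A, 24.6 and 20.4 with siPARP1-B, 9.66 and 8.75 with siPARP2-A and 20.3 and 18.9 with siPARP2-B. Every siRNA gave lower levels of it than siNC, siPARP2-A the lowest, with changes of -1.37 ± 0.11 and -0.76 ± 0.11 for the siPARP1 sequences. PMEPA1 was at 275 and 286 with siNC, 88.2 and 94.7 with siPARP1-A, 199 and 210.1 with siPARP1-B, 126 and 121 with siPARP2-A and 119.6 and 117 with siPARP2-B. SORD was at 1123 and 1198 with siNC, 397 and 402 with siPARP1-A, 962 and 943 with siPARP1-B, 484 and 472 with siPARP2-A and 485 and 438 with siPARP2-B. For both genes siPARP1-A gave the lowest levels and siPARP1-B the level nearest to siNC, with siPARP1 changes of -1.61 ± 0.06 and -0.46 ± 0.06 for PMEPA1 and -1.54 ± 0.06 and -0.28 ± 0.06 for SORD. The scaffold HOMER2 was at 329 and 346 with siNC, 152 and 153 with siPARP1-A, 253 and 252 with siPARP1-B, 235 and 224 with siPARP2-A and 151 and 146 with siPARP2-B. Its siPARP1-A and siPARP2-B libraries were the lowest (-1.14 ± 0.05 and -0.42 ± 0.05 with the siPARP1 sequences). CAMKK2, the kinase that activates AMPK, was at 84.2 and 92.9 with siNC, 52.2 and 50.7 with siPARP1-A, 62.7 and 65.8 with siPARP1-B, 61.96 and 63.3 with siPARP2-A and 57.9 and 56.2 with siPARP2-B, below siNC in every siRNA library (-0.77 ± 0.07 and -0.46 ± 0.07). ABCC4 changed by -1.68 ± 0.06 and -0.23 ± 0.06 with the siPARP1 sequences. Apart from TARP, these genes were also lowered by both siPARP2 sequences and by olaparib: 6 members fell with all 4 siRNAs, beside 4.05% of all genes.

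TM4SF1 rose with both siPARP1 sequences by similar amounts (1.37 ± 0.12 and 1.26 ± 0.12), and CCDC141 rose less (0.36 ± 0.11 and 0.42 ± 0.11). The call of CCDC141 was lost without the first siPARP1-A library (adjusted p = 0.123) and, with siPARP1-B, without the second library of that group (0.0701). MAK rose with siPARP1-A alone (0.57 ± 0.15, adjusted p = 0.00308), and the difference from siPARP1-B passed too (0.59 ± 0.15); its rise was lost without the second siNC library (0.051) or the second siPARP1-A library (0.0543). INPP4B rose with siPARP1-B (1.06 ± 0.12) and changed by -0.03 ± 0.12 with siPARP1-A (95% interval -0.27 to 0.21, adjusted p = 0.825). SLC26A3 fell with siPARP1-B (-0.89 ± 0.17) and changed by -0.15 ± 0.17 with siPARP1-A (95% interval -0.50 to 0.20), a difference that passed (0.74 ± 0.17). Among the members that moved in opposite directions, TRPM8 changed by -0.84 ± 0.09 and 0.88 ± 0.09, CHRNA2 by -1.65 ± 0.10 and 0.36 ± 0.10, SLC41A1 by -1.94 ± 0.07 and 0.34 ± 0.07 and NCAPD3 by -2.54 ± 0.07 and 0.33 ± 0.07. Rises with siPARP1-B that lost their call when 1 library was left out were those of CHRNA2 (without the second siNC library), MAF (without the first siNC library) and ELL2 (without the second siPARP1-B library), and ADAM7 lost its calls with both siPARP1 sequences under several settings.

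Compared directly, 28 of 32 members were lower with siPARP1-A than with siPARP1-B and 2, MAK and SLC26A3, were higher, beside 26.5% and 28.4% of all genes and 54.8% in either direction. The largest of these differences was that of NCAPD3 (-2.87 ± 0.07, adjusted p = 1.19e-20). For TM4SF1 and CCDC141 the difference did not pass, with 95% intervals of -0.13 to 0.35 and -0.29 to 0.16. FOXA1 changed by -0.90 ± 0.09 with siPARP1-A and 0.12 ± 0.09 with siPARP1-B; its part was not tested. The summed luminal markers were at 2032 to 2039.8 with siPARP1-A and 2614 to 2635 with siPARP1-B. The stromal markers were at 4.20 to 4.41 and 2.69 to 3.60, and the immune and endothelial markers at 3.63 to 3.75 and 0.967 to 1.07, and their part was not tested either. In the list of further androgen-induced genes, 22 of 31 fell and 4 rose with siPARP1-A, beside 28.9% and 25.5% of all genes. With siPARP1-B, 13 of them fell and 5 rose, beside 23.9% and 16.4% of all genes.

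**Figure D4:**
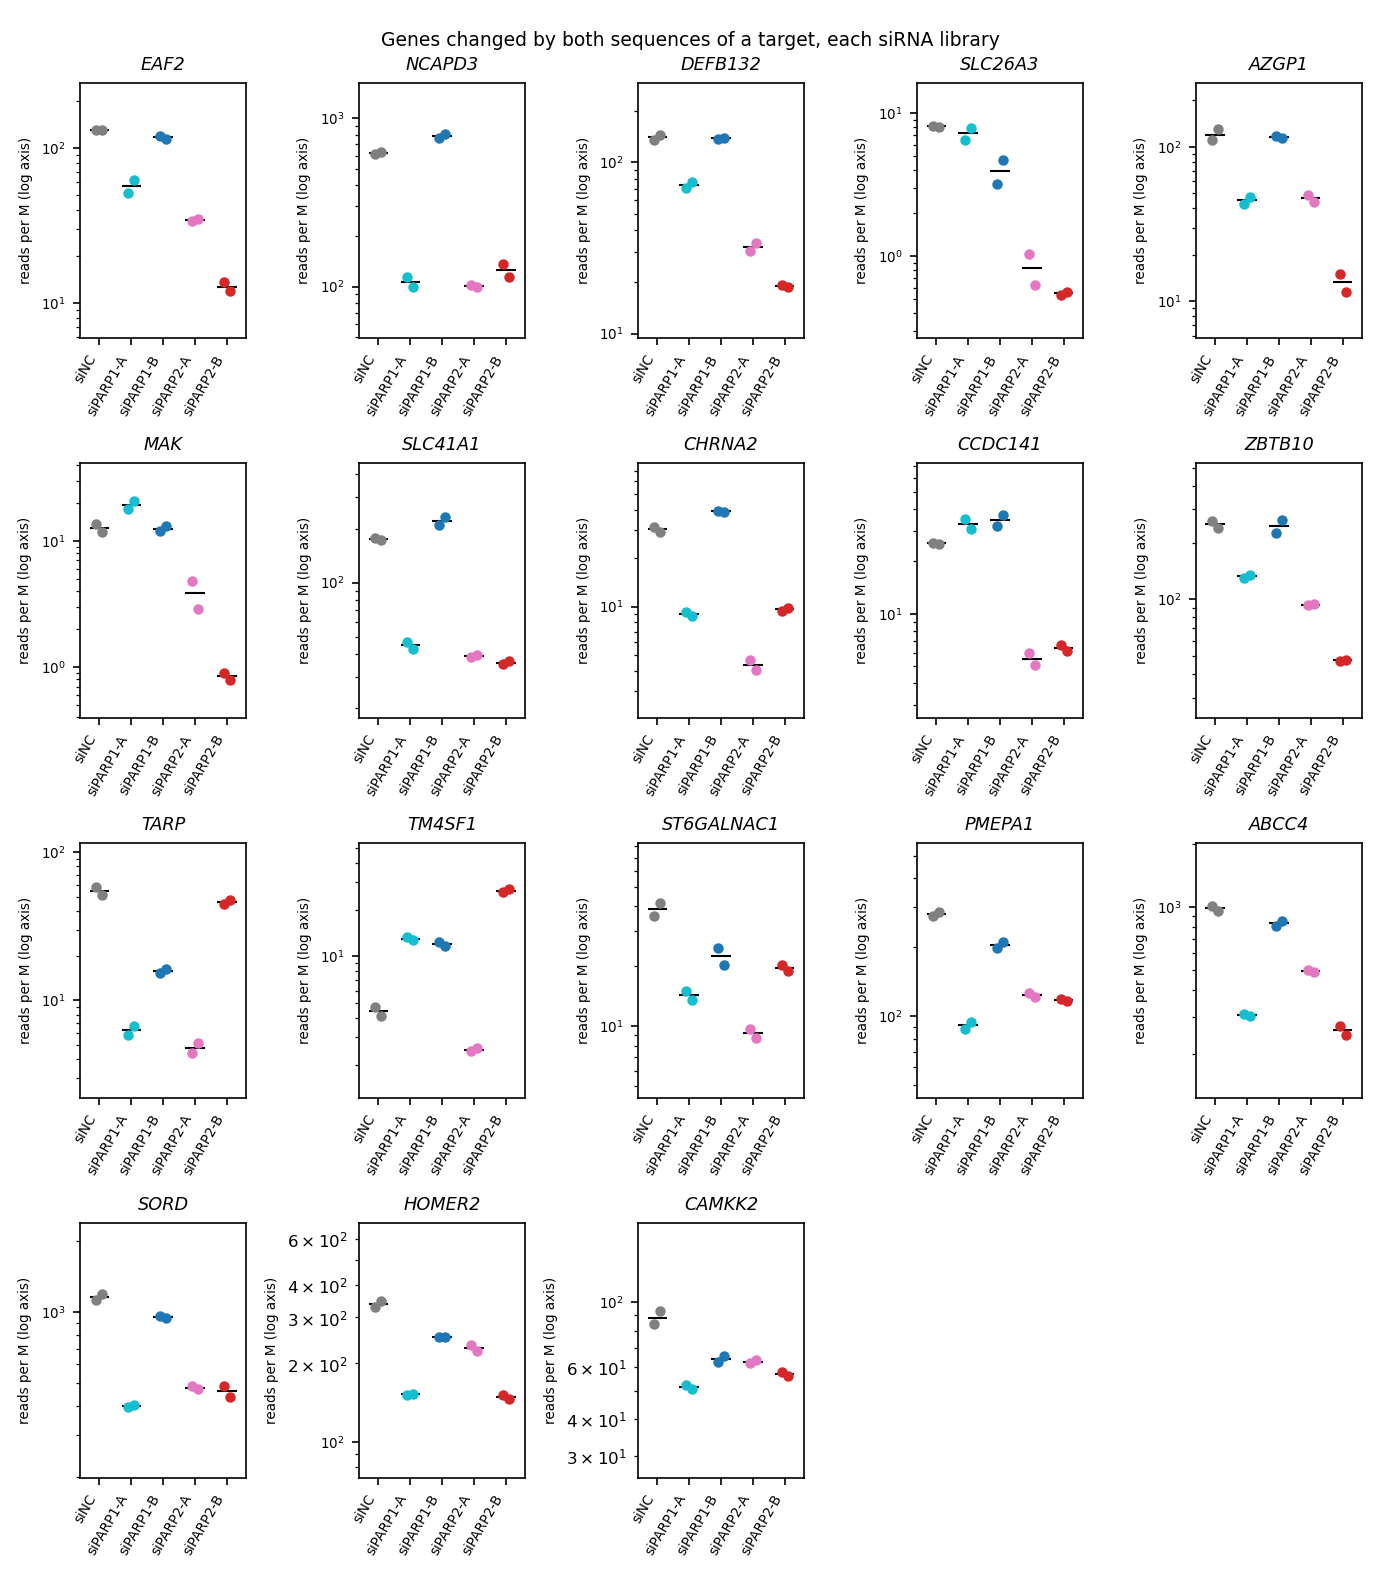
Normalised reads per M of each siRNA library (points, log axis) for the 18 genes that changed in the same direction with both sequences of a target and were chosen by mean change; black bars are the means of 2 libraries. EAF2, DEFB132, AZGP1, MAK and ZBTB10 are lowest with siPARP2-B, TARP stays near siNC with siPARP2-B, and TM4SF1 is lowest with siPARP2-A and highest with siPARP2-B.

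The mean of the siPARP2 sequences was lower than the mean of the siPARP1 sequences for 29 of 32 members and higher for TARP (0.59 ± 0.07), beside 32.2% and 33.3% of all genes. The median difference was -0.74, beside 0.0086 for all genes, and 14 members differed by at least 2-fold downwards, beside 2.55%. MAK (-2.48 ± 0.11), CCDC141 (-2.31 ± 0.08), DEFB132 (-1.99 ± 0.05), EAF2 (-1.91 ± 0.06) and SLC26A3 (-1.91 ± 0.12) had the largest differences. CAMKK2 (0.06 ± 0.05, 95% interval -0.04 to 0.15) and HOMER2 (-0.09 ± 0.04, 95% interval -0.17 to -0.01) did not pass, though HOMER2 passed with edgeR (adjusted p = 0.0256) and CAMKK2 with the correction for GC content and length (0.0475). The siPARP1 mean averages sequences that differed from each other for 30 of 32 members, so that it stands for neither. The siPARP2 sequences likewise differed for 23 of 32. For TARP the siPARP2-A libraries, at 4.40 and 5.19, lay below all siPARP1 libraries. Only the siPARP2-B libraries of TARP, at 44.9 and 47.8, lay above them. The changes with siPARP1-A and siPARP2-A were -1.61 and -1.18 for PMEPA1 and -1.68 and -0.98 for ABCC4. For HERC3 they were -1.43 and -0.85, and for HOMER2 -1.14 and -0.55. Other members were lower with siPARP2-A, among them DEFB132 (-0.91 and -2.10), CHRNA2 (-1.65 and -2.55) and CCDC141 (0.36 and -2.02). For each of these examples the libraries of these siRNAs did not overlap, and this pair was not tested directly.

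Read across both experiments, 26 members fell with olaparib and with both siPARP2 sequences, beside 5.87% of the 12275 genes tested in both tables. Those that fell with olaparib and both siPARP1 sequences numbered 7, beside 3.5%. LIFR rose with olaparib and ADAMTS1 did not pass, while both fell with both siPARP2 sequences. The changes of single genes differed in size between the experiments. EAF2 changed by -0.59 with olaparib and by -1.90 and -3.27 with the siPARP2 sequences, and NCAPD3 by -0.68 beside -2.63 and -2.31. PMEPA1 changed by -2.37 beside -1.18 and -1.24, and STK39 by -2.104 beside -0.53 and -0.63. Across the 31 members tested in both, Spearman's correlation between the olaparib changes and those with siPARP2-A was 0.079 and with siPARP2-B -0.347, beside 0.058 and 0.258 across all 12275 genes. These are descriptions across genes that share their libraries. The experiments differed in time of exposure and were normalised apart, and changes were not tested between them.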

How the data were processed

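LNCaP transcripts were measured by RNA sequencing in 18 libraries, 2 per group, grouped by their labels alone. Per the submitters' processing notes, the tools included TopHat2 2.1.0 and HTSeq 0.6.1, with bcl2fastq 2.18 and edgeR 3.12.0, and the build was hg19. The inhibitor table as deposited by the authors holds CPM, and the siRNA table as deposited by the authors holds a normalised signal in reads per M of a scaled library size. In both, all values above 0 (100%) were whole multiples of 1 read within 0.01 of a read, so that reads were recovered. The level worth 3 reads was 0.0841 to 0.113 in CPM and 0.169 to 0.207 in the siRNA table. No coordinates of the files were used, and 0 sample columns were left unused.

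Genes with a mean of at least 1 in a table (13337 and 12701) were tested with limma's trend method on log2(value + 1), 2-sided, with all groups of a table in 1 fit and Benjamini-Hochberg adjustment over all genes, at a threshold of 0.05. The pseudocount of 1 understates changes of low genes. The p-values rest on the spread between 2 libraries per group, pooled over all groups of a fit and moderated by a spread shared across genes. Residual degrees of freedom were 4 for inhibitors and 5 for siRNAs, and those of the shared spread 17.6 and 19.0, so the latter weighed more. The groups pooled differed in noise. Chi-square per gene between the libraries of a group ran from 1.28 (UPF1069) to 5.64 (veliparib), and from 2.54 (siPARP1-A) to 7.70 (siNC). R 4.3.3, limma 3.58.1, edgeR 4.0.16 and DESeq2 1.42.0 were used, and the method was tested on simulated data. Alternatives were a pseudocount of 0.1, no filter, TMM factors, median centring, edgeR's quasi-likelihood test and DESeq2 on recovered reads, a replicate block, only the groups compared, each library left out, and, chosen after seeing the data, a correction for GC content and length. On the recovered reads edgeR called 3242 genes with UPF1069, 7144 with olaparib, 5470 with veliparib, 6958 and 4997 with siPARP1-A and -B and 6329 and 8455 with siPARP2-A and -B, beside 3245, 7004, 5387, 6913, 5125, 6277 and 8390 with limma. Library values are given for the 10 members with the largest log2 fold change with olaparib, and for PARP1 and PARP2. They are also given for up to 10 members changed in the same direction by both sequences of a target. Inhibitor values of LIFR, ADAMTS1, ABCC4, SORD and EAF2 and siRNA values of LIFR, INPP4B and TRPM8 were added after they were seen. The members and gene lists were chosen with earlier results of these data known. Some transcripts looked at as checks are not reported here. Percentages of all genes count those that passed the same rule.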

Additional observations from a re-analysis of the deposited data

How the results depend on the processing

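With olaparib, the 29 lower members and LIFR as the 1 higher member were found under every alternative run, and the counts of lower members with the siPARP2 sequences stayed at 31 to 32 and 28 to 30. The counts that moved included the following. Across the alternatives that kept all libraries, members lower with UPF1069 numbered 9 to 16, beside 11. Members higher with veliparib numbered 7 to 11 there and 7 to 12 with a library left out, beside 10. Members higher with siPARP1-B numbered 10 to 12 and 8 to 11, beside 11. Members higher with UPF1069 numbered 5 in a fit of only the groups compared and 5 with the correction for GC content and length, beside 3. With that correction, members lower with veliparib numbered 5 beside 2, members higher with olaparib than with veliparib 1 beside 0, and members higher with siPARP2 than with siPARP1 2 beside 1. Members higher with UPF1069 than with veliparib numbered 1 with DESeq2 and 1 in a fit of only the groups compared, beside 3. Leaving out a library gave 6 to 14 members lower and 0 to 5 higher with UPF1069, 2 to 4 lower with veliparib, 0 to 1 higher with olaparib than with veliparib and 0 to 3 higher with UPF1069 than with veliparib. Of 7418 alternative values of single members, 7148 kept direction and side of the threshold, 115 lost and 64 gained a call with the same sign, and 85 changed sign with no call on either side. The other 6 changed sign with a call on 1 side, all with the GC content and length correction. Between UPF1069 and veliparib, LIFR went to 0.039 and ZBTB10 to 0.035 and lost their call, and HOMER2 went to 0.105 and ABCC4 to 0.068 and gained one. With veliparib against DMSO, HOMER2 went to -0.13 and ZBTB10 to -0.12 and gained one. The cause was not tested.

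With the replicate number as a block, 10 members were lower and 2 higher with UPF1069, 29 lower with olaparib, 32 lower with siPARP2-A and 29 with siPARP2-B, all within 1.5 times of the counts without it. Same-numbered libraries correlated at -0.060 to 0.030 over 6 pairs of inhibitor groups and at -0.141 to 0.115 over 10 pairs of siRNA groups, so the numbers were not taken to pair the samples. At 15.4 to 18.6 M reads, levels such as that of SLC26A3 with siPARP2 rest on few reads.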

Other observations

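Several members stood at very different levels in the control libraries of the experiments, which were normalised apart and differed in time and treatment, so that no test was made. EAF2 was at 5.32 and 5.56 CPM with DMSO and at 131 and 129.95 normalised reads per M with siNC, and DEFB132 at 9.82 and 8.82 and 135 and 145. RHOU was at 64.6 and 68.1 and 872 and 839.95. ADAM7 and TM4SF1 went the other way, at 23.8 and 21.8 beside 3.25 and 3.68 and at 22.5 and 24.6 beside 4.74 and 4.13. TRPM8, at 42.6 and 40.7 and 39.9 and 43.4, and STK39, at 277 and 282 and 309.99 and 300.3, had like levels in both.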
